A study of Mus musculus with 18 samples.

Results

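The sodium-chloride cotransporter and 7 genes of calcium transport that mark the distal convoluted tubule (DCT) and the connecting tubule were followed in microdissected thick ascending limbs (TAL) of the mouse kidney. The 8 genes, *Slc12a3*, *Trpv5*, *Calb1*, *S100g*, *Pvalb*, *Slc8a1*, *Atp2b1* and *Atp2b4*, were chosen by symbol among 55401 genes of the deposited tables, of which 33307 had at least 1 count. All 8 symbols were found.

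In the distal convoluted tubule, sodium and chloride enter from the lumen through the thiazide-sensitive cotransporter NCC. In its late part and in the connecting tubule, calcium enters through the channel TRPV5, is carried across the cell by calbindins, and leaves through the sodium-calcium exchanger and the plasma membrane calcium pumps. The thick ascending limb, which lies just upstream, reabsorbs sodium chloride through NKCC2 and moves calcium mainly between its cells, and it also expresses some of these pumps.

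Tubules were dissected from the cortex (CTAL) or from the outer medulla, in its inner stripe (MTAL), of adult male mice on a mainly C57BL/6 background, and each pool came from a single mouse. The knock-out mice (cKO) were *Cldn10* fl/fl; Ksp-Cre, and their littermates with *Cldn10* fl/fl and no Cre were the controls (WT), so that both genotypes carried the floxed alleles. The Cre is driven by the Ksp-cadherin promoter in the distal nephron, which takes in more segments than the thick ascending limb. There were 5 pools of WT CTAL, 5 of cKO CTAL, 5 of WT MTAL and 3 of cKO MTAL, and 2 cKO MTAL pools that failed the study's quality control were not analysed here. The title and genotype label of WT CTAL pool 1 name the knock-out, but the pool is called WT in its own name and in the study's tables, which were followed here.

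Counts per pool summed to between 10824299 and 62339939. Levels are CPM (counts scaled by the library size after TMM normalization) unless TPM, which is scaled for transcript length as well, is named. *Cldn10* was at 383 to 579 CPM in WT CTAL, 156 to 185 CPM in cKO CTAL, 665 to 823 CPM in WT MTAL and 151 to 283 CPM in cKO MTAL, without overlap between the genotypes of a segment, and no cKO pool lacked the transcript. WT CTAL pool 1 held 446 CPM. The study left out a cKO CTAL pool for its *Cldn10* level, so that this gene had a part in which cKO CTAL pools remained. *Xist*, which is transcribed in female cells, was at 6.5 to 8.91 CPM in 7 of the 18 pools and at no more than 0.736 CPM in the others, while the summed level of 4 Y-linked genes lay between 89.2 and 125 CPM in every pool. Pools with *Xist* were 2 of 5 in WT CTAL, 1 of 5 in cKO CTAL, 4 of 5 in WT MTAL and 0 of 3 in cKO MTAL. The mouse is the replicate, and a bulk pool cannot tell fewer cells of a type from less RNA per cell.

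Sequence before the transcription start is shown for the gene with the clearest difference between genotypes, *S100g*, and for the gene that defines the distal convoluted tubule, *Slc12a3*. The RefSeq table of GRCm38.p6 held 9 windows for 7 of the 8 genes and none for *Calb1*. Both strands of the 250 bases before each start were searched for the nuclear receptor half-site AGGTCA, which the vitamin D receptor and related receptors can bind, and for TATAAA, the TATA box. Capitals mark the matches, and a match on the other strand reads TGACCT.

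S100g, chrX:162964600-162964849, minus strand: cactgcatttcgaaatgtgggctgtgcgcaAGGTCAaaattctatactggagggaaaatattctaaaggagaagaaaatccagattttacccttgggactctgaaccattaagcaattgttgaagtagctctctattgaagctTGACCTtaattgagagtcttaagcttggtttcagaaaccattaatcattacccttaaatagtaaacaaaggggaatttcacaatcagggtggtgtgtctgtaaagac

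Slc12a3, chr8:94328958-94329207, plus strand: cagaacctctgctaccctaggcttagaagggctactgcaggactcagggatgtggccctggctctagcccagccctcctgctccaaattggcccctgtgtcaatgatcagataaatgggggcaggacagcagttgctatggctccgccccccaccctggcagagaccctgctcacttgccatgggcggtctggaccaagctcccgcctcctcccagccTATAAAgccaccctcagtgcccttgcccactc

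The *S100g* window held 2 half-sites, which begin 220 and 107 bases before the start, and those letters occurred at least 2 times in 1.36% of 32851 windows of the same length (14% held at least 1). The windows of *Slc12a3* and *Trpv5* each held TATAAA, which 12.4% of all windows hold. These matches describe letters only.

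*Slc12a3* (ENSMUSG00000031766, chromosome 8, 94329201 to 94366214 of GRCm38) encodes NCC, the entry step for sodium chloride in the distal convoluted tubule. In WT CTAL pools 1, 3, 8, 10 and 22 its level was 11.3, 6.21, 11.2, 1.93 and 22.6 CPM. In cKO CTAL pools 2, 4, 7, 9 and 21 it was 60.8, 2.35, 5.15, 11.5 and 11.9 CPM. Pool 2 thus held 2976 counts of *Slc12a3*, well above every other pool, and the other 4 cKO CTAL pools lay within the range of WT CTAL. The medullary pools were low, at 2.70, 1.58, 2.22, 2.76 and 2.09 CPM in WT MTAL pools 11, 13, 15, 17 and 19, and at 5, 4.24 and 1.74 CPM in cKO MTAL pools 16, 18 and 20. The order of the group means was cKO CTAL (18.3 ± 24.1 CPM, SD, n = 5), WT CTAL (10.6 ± 7.72, SD, n = 5), cKO MTAL (3.66 ± 1.71, SD, n = 3) and WT MTAL (2.27 ± 0.482, SD, n = 5), and each group overlapped its neighbour. Per transcript length, *Slc12a3* averaged 4.02 TPM in WT CTAL, where *Slc12a1*, which encodes NKCC2 of the thick ascending limb, averaged 4247 TPM. The 7 markers of the thick ascending limb summed to 40854 to 72132 CPM over all pools, proximal tubule markers to 11.9 to 79.3 CPM and endothelial markers to 133 to 435 CPM.

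The log2 fold change of *Slc12a3* between cKO CTAL and WT CTAL was 0.78 (SE, the standard error, 0.70; adjusted p = 0.739 in edgeR). Without cKO CTAL pool 2 it was −0.46 (adjusted p = 0.852), so that even its sign rested on that pool. In both comparisons of WT MTAL, with cKO MTAL and with WT CTAL, *Slc12a3* and *Calb1* did not pass the filter on low counts, which takes CPM on total counts, and were not tested.

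*Trpv5* (ENSMUSG00000036899, chromosome 6, 41652173 to 41680769) encodes the apical calcium channel. Its levels were near the limit of detection. WT CTAL pools 1, 3, 8, 10 and 22 held 2, 3, 11, 3 and 11 counts, or 0.0779, 0.282, 0.180, 0.102 and 0.371 CPM. In cKO CTAL pools 2, 4, 7, 9 and 21 there were 285, 12, 9, 122 and 33 counts, or 5.82, 0.522, 0.455, 1.86 and 1.65 CPM. Each of the 5 cKO CTAL pools was above each WT CTAL pool (exact two-sided Mann-Whitney test, p = 0.00794, the smallest that 5 pools against 5 allow), on TPM and on total-count CPM as well. If pool 1, whose label conflicts, were a knock-out pool, the groups would overlap, since it held the lowest *Trpv5* of the 10. WT MTAL pools 11, 13, 15, 17 and 19 held 0.235, 0.211, 0.101, 0.102 and 0.204 CPM (2 to 10 counts). The 3 cKO MTAL pools, 16, 18 and 20, were again higher, at 0.493, 0.888 and 2.03 CPM (7, 18 and 35 counts; exact p = 0.0357, the smallest that 3 pools against 5 allow).

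*Trpv5* did not pass the filter on low counts in any comparison. With every gene kept, the edgeR estimate on the log2 scale was 3.39 in CTAL (SE 0.68, adjusted p = 0.0272) and 2.71 in MTAL (SE 0.80, adjusted p = 0.0357), where 0.224% of 31217 and 2.87% of 30288 genes passed the thresholds. The call rested on few pools. In CTAL it was lost without cKO CTAL pool 2 (2.5, adjusted p = 0.106), WT CTAL pool 3 (3.49, adjusted p = 0.0615) or WT CTAL pool 10 (3.22, adjusted p = 0.0898). In MTAL it was lost without cKO MTAL pool 20 (2.0, adjusted p = 0.33), WT MTAL pool 15 (2.61, adjusted p = 0.0643) or WT MTAL pool 17 (2.56, adjusted p = 0.0774).

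**Figure D1:**
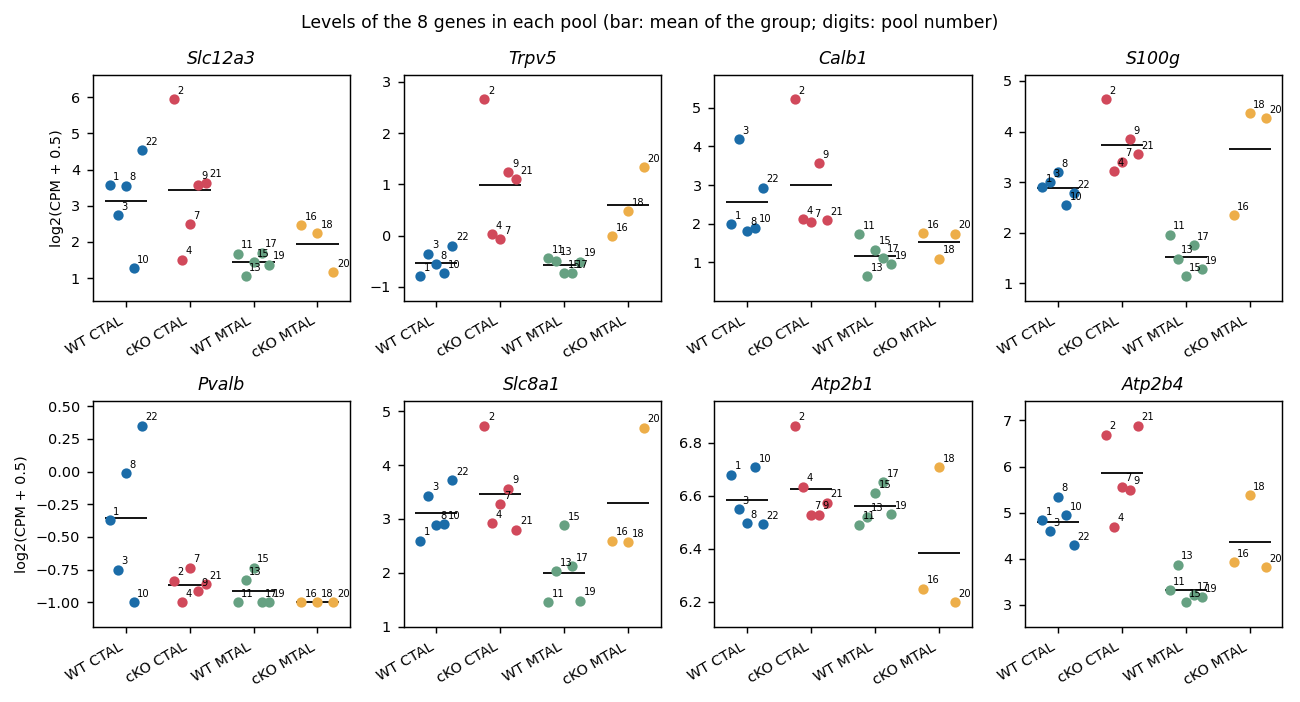
The levels of the 8 genes are plotted as log2(CPM + 0.5) for each of the 18 pools in 4 groups, with a bar at the group mean of these values and the pool number beside each point, and each panel has its own vertical scale. *Trpv5* and *S100g* lie higher in every cKO pool than in every WT pool of the same segment, and cKO CTAL pool 2 is the highest cKO CTAL pool for *Slc12a3* (60.8 CPM), *Trpv5*, *Calb1*, *S100g*, *Slc8a1* and *Atp2b1*.

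*S100g* (ENSMUSG00000040808, chromosome X, 162961992 to 162964599) encodes calbindin-D9k, a small calcium carrier that vitamin D is known to induce. WT CTAL pools 1, 3, 8, 10 and 22 held 6.97, 7.53, 8.64, 5.32 and 6.37 CPM. All cKO CTAL pools were above them, at 24.4, 8.83, 10.1, 13.9 and 11.2 CPM in pools 2, 4, 7, 9 and 21 (exact Mann-Whitney p = 0.00794). The margin was narrow, since pool 4 (8.83 CPM) and WT CTAL pool 8 (8.64 CPM) were almost level, and the groups would overlap if pool 1, at 6.97 CPM, were a knock-out pool. WT MTAL was lower, at 3.40, 2.30, 1.71, 2.88 and 1.93 CPM in pools 11, 13, 15, 17 and 19, and cKO MTAL pools 16, 18 and 20 held 4.58, 20 and 18.7 CPM. Thus WT MTAL lay below all 3 other groups without overlap, and cKO MTAL (14.4 ± 8.57 CPM, SD, n = 3) and cKO CTAL (13.7 ± 6.28 CPM, SD, n = 5) overlapped.

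In the medulla *S100g* rose in cKO pools by 2.60 on the log2 scale (SE 0.43, adjusted p = 0.00186). It was also called with each pool left out in turn, at 2.31 to 3.02 (highest adjusted p = 0.0129). Among these fits is that without the medullary pool of highest *Scnn1b*, pool 20 (2.37, adjusted p = 0.0129). With *Xist* (high or low) as a covariate in a fit of all 4 groups it was 2.91 (adjusted p = 0.000229). In the cortex the log2 fold change was 0.97 (SE 0.25, adjusted p = 0.0864) and did not pass. DESeq2 gave it an adjusted p of 0.00956 with a log2 fold change of 0.96, just under the fold required. The test of the difference between these effects gave 1.63 (SE 0.49, adjusted p = 0.111), which was past the threshold with DESeq2 (1.64, adjusted p = 0.0341) and without cKO MTAL pool 16 (2.05, adjusted p = 0.0292). On opposite strands, *S100g* overlaps *Ctps2*, and *Slc8a1* also has 2 overlapping genes on the other strand and *Atp2b4* 2 on its own. Whether the counting used the strand is not given in the sources used here, so that reads of such partners cannot be told apart.

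*Calb1* (ENSMUSG00000028222, chromosome 4, 15881264 to 15908064) encodes calbindin-D28k, the large calcium carrier of the distal convoluted and connecting tubules. It was at 3.47, 17.7, 3.03, 3.22 and 7.14 CPM in WT CTAL pools 1, 3, 8, 10 and 22 and at 36.8, 3.83, 3.59, 11.3 and 3.75 CPM in cKO CTAL pools 2, 4, 7, 9 and 21. Most cortical pools sat near 3 to 4 CPM, and single pools of either genotype stood far above them. The WT MTAL pools held 1.06 to 2.82 CPM (median 1.67) and the cKO MTAL pools 1.63, 2.84 and 2.89 CPM, all below the lowest cortical pool (exact Mann-Whitney p = 0.00794 for WT MTAL against WT CTAL and 0.0357 for cKO MTAL against cKO CTAL). On TPM the WT groups overlapped (exact p = 0.0952). Between cKO CTAL and WT CTAL the log2 fold change was 0.85 (SE 0.66, adjusted p = 0.681), and −0.23 without cKO CTAL pool 2. When all 4 groups were fitted together with *Xist* as a covariate, in which *Calb1* is tested, it was called higher in cKO MTAL than in WT MTAL (2.0, adjusted p = 0.0159), although the levels of these 2 groups overlapped.

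*Pvalb* (ENSMUSG00000005716, chromosome 15, 78191114 to 78206400) encodes parvalbumin, the calcium buffer of the early distal convoluted tubule. WT CTAL pools 1, 3, 8, 10 and 22 held 7, 1, 30, 0 and 23 counts, and cKO CTAL pools 2, 4, 7, 9 and 21 held 3, 0, 2, 2 and 1. No pool reached 1 CPM. The highest was WT CTAL pool 22, at 0.775 CPM, and the 3 WT CTAL pools with 7 or more counts were above every cKO CTAL pool, but the groups overlapped (exact p = 0.159). The medulla held 0 to 3 counts in WT MTAL and 0 in each of the 3 cKO MTAL pools, where 3 counts, the most that a count of 0 allows, would be 0.148 to 0.211 CPM. With every gene kept, the log2 fold change between cKO CTAL and WT CTAL was −2.75 (SE 0.95, adjusted p = 0.35).

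*Slc8a1* (ENSMUSG00000054640, chromosome 17, 81373105 to 81738377) encodes the sodium-calcium exchanger NCX1 of the basolateral membrane. Its levels were 5.53, 10.3, 6.92, 6.98 and 12.7 CPM in WT CTAL pools 1, 3, 8, 10 and 22 and 26.1, 7.09, 9.14, 11.3 and 6.45 CPM in cKO CTAL pools 2, 4, 7, 9 and 21. WT MTAL pools 11, 13, 15, 17 and 19 held 2.23, 3.59, 6.90, 3.86 and 2.29 CPM, and cKO MTAL pools 16, 18 and 20 held 5.56, 5.43 and 25.4 CPM. A single pool of each cKO group, cortical pool 2 and medullary pool 20, stood far above the rest. The log2 fold change was 0.51 (SE 0.35, adjusted p = 0.628) in the cortex and 1.73 (SE 0.51, adjusted p = 0.0544) in the medulla, where it was 0.59 (adjusted p = 0.578) without pool 20. DESeq2 called the medullary difference (1.73, adjusted p = 0.0107). So did edgeR with every gene kept, in a shared fit of the 4 groups, and in that fit with *Xist* as a covariate. With single pools left out, edgeR called it without WT MTAL pool 15, cKO MTAL pool 16 or cKO MTAL pool 18, and not without any other pool.

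*Atp2b1* (ENSMUSG00000019943, chromosome 10, 98914406 to 99026143) encodes the plasma membrane calcium pump PMCA1, found in most cells. It varied least of the 8 genes, with 89.6 to 104 CPM in WT CTAL, 91.8 to 116 CPM in cKO CTAL and 89.4 to 100 CPM in WT MTAL. In cKO MTAL pools 16, 18 and 20 it was at 75.6, 104 and 72.9 CPM. The log2 fold changes were 0.03 (SE 0.08) in the cortex and −0.11 (SE 0.13) in the medulla, and neither passed (adjusted p = 0.918 and 0.653). On TPM the 3 cKO MTAL pools were instead all above WT MTAL, at 31.6 to 42.6 TPM against 20 to 26.6 TPM (exact p = 0.0357), so that the direction turned with the unit.

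*Atp2b4* (ENSMUSG00000026463, chromosome 1, 133699457 to 133801041) encodes the pump PMCA4. WT CTAL pools 1, 3, 8, 10 and 22 held 28.1, 23.7, 40.2, 30.4 and 19.1 CPM, and cKO CTAL pools 2, 4, 7, 9 and 21 held 103, 25.4, 46.8, 44.7 and 118 CPM. All cKO CTAL pools but pool 4 were above every WT CTAL pool (exact p = 0.0556). WT MTAL was lower throughout, at 9.44, 14.1, 7.80, 8.72 and 8.45 CPM in pools 11, 13, 15, 17 and 19, and cKO MTAL pools 16, 18 and 20 held 14.7, 41.0 and 13.6 CPM. In the medulla *Atp2b4* rose in cKO pools by 1.29 (SE 0.33, adjusted p = 0.0288). The call was lost without cKO MTAL pool 18 (0.61, adjusted p = 0.262), without any of WT MTAL pools 11, 15, 17 and 19, and with *Xist* as a covariate (1.15, adjusted p = 0.113). In the cortex the log2 fold change was 1.23 (SE 0.34, adjusted p = 0.106), which was called without cKO CTAL pool 4 (1.44, adjusted p = 0.031) and, with every gene kept, without WT CTAL pool 8 as well (1.41, adjusted p = 0.0431). cKO CTAL pool 21, the highest for *Atp2b4*, was at 11.9 CPM of *Slc12a3*, 3.75 CPM of *Calb1* and 1.65 CPM of *Trpv5*, whereas pool 2 was high in all 4 genes.

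**Figure D2:**
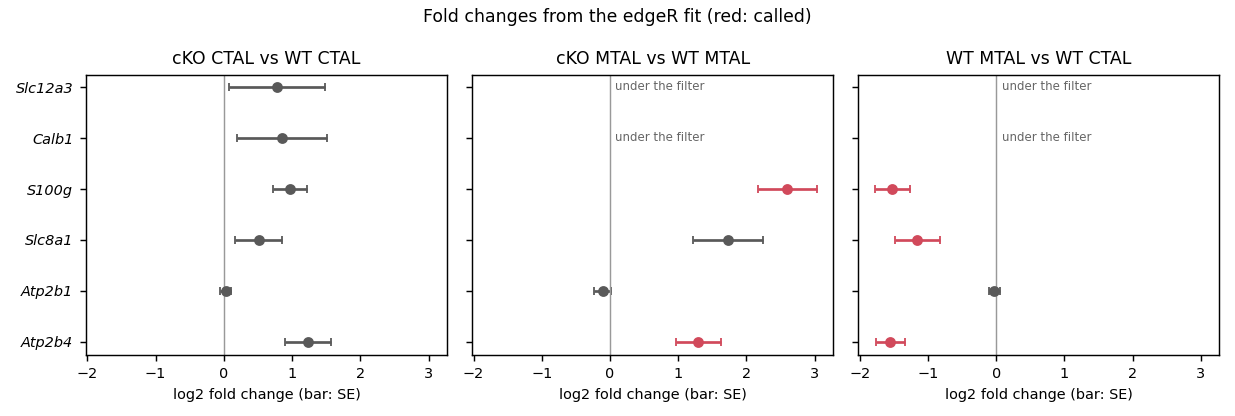
Log2 fold changes from the edgeR fits are plotted with their standard errors for the 6 genes that passed the filter in at least 1 of 3 comparisons, called genes in red. *S100g* and *Atp2b4* are called in the medullary genotype comparison, none in the cortical one, and *S100g*, *Slc8a1* and *Atp2b4* are called lower in WT MTAL than in WT CTAL.

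Counted over the comparisons, a gene was called where its adjusted p was under 0.05 and its level differed at least 2-fold, a log2 fold change of 1 in either direction. Between cKO MTAL and WT MTAL, 4 of the 8 genes were tested, and 2 were called, *S100g* and *Atp2b4*, both higher, where 3.74% of 12060 genes were called in either direction. The median log2 fold change of the 4 was 1.51, and that of all genes 0.00. The 4 genes left out by the filter are not in that median. With every gene kept, the median of the 8 was 0.96 and 4 were called, where 2.87% of 30288 genes were called. Of the WT MTAL pools only pool 11 was above 3 CPM of *S100g* (3.4 CPM). *S100g* thus passed the filter mainly through the cKO MTAL pools. Between cKO CTAL and WT CTAL none of 6 tested genes was called by edgeR or by DESeq2, where 0.470% of 11702 genes were called by edgeR. At an unadjusted p under 0.05, *S100g* and *Atp2b4* of these 6 passed the edgeR test. The median of the 6 was 0.81, beside 0.00 for all genes. That median rested on cKO CTAL pool 2, without which it was −0.01. With any other single pool left out it was 0.58 to 1.06. Without the 3 pools of highest *Scnn1b*, of which pool 2 is one, it was −0.09. These comparisons used separate pools.

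Between the WT segments, which compares the normal medullary and cortical limbs, 3 of 4 tested genes were called and all were lower in WT MTAL, where 2.32% of 11650 genes were called. *Atp2b4* was lower by −1.55 (SE 0.21, adjusted p = 0.000173) and *S100g* by −1.52 (SE 0.26, adjusted p = 0.0012), and both were called with each pool left out in turn. *Slc8a1* was lower by −1.16 (SE 0.33, adjusted p = 0.0459), was called without WT CTAL pool 1 or WT MTAL pool 15, and lost the call without any one of the other 8 pools. It was not called by limma on TPM (adjusted p = 0.0964), in a shared fit of the 4 groups (adjusted p = 0.135) or with every gene kept (adjusted p = 0.0577). With every gene kept, *Slc12a3* (−2.23, adjusted p = 0.00337) and *Calb1* (−1.93, adjusted p = 0.0202) were called lower in WT MTAL beside *Atp2b4* and *S100g*, where 1.25% of 31356 genes were called. This comparison shares its WT MTAL and WT CTAL pools with the genotype comparisons.

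Between cKO MTAL and cKO CTAL none of 6 tested genes was called by edgeR or DESeq2 (0.938% of 12044 genes were called by edgeR), and the unadjusted p was under 0.05 for 3 of them, *Atp2b4*, *Calb1* and *Slc12a3*. *Atp2b4* was at −1.49 (SE 0.50, adjusted p = 0.143) and was called when all 4 groups shared a fit (−1.51, adjusted p = 0.035). Between cKO MTAL and WT CTAL none of 6 was called by edgeR or DESeq2 either (1.21% of 12024 genes were called by edgeR), with an unadjusted p under 0.05 for *S100g*, *Slc12a3* and *Calb1*. The values were 1.08 for *S100g* (adjusted p = 0.138) and −1.43 for *Calb1* (adjusted p = 0.219). For the difference between the genotype effects none of 6 was called by edgeR (0.230% of 12586 genes were), with an unadjusted p under 0.05 for *S100g*, the gene that DESeq2 called.

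Counted by pools without overlap in CPM, *Trpv5* and *S100g* were above in cKO MTAL against WT MTAL, where 15% of the filtered genes did not overlap, and again in cKO CTAL against WT CTAL, where 3.13% did not. In WT MTAL against WT CTAL, *Calb1*, *Atp2b4* and *S100g* were below (7.30% of filtered genes did not overlap), in cKO MTAL against cKO CTAL *Calb1* was below (10.8%), and in cKO MTAL against WT CTAL *Calb1* was below and *Trpv5* above (12%). These shares are over genes past the filter, which *Trpv5* did not pass in any comparison and *Calb1* did not pass in WT MTAL against WT CTAL. The 40 exact tests of 8 genes in 5 comparisons are given without adjustment.

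Pool by pool, the genes did not follow *Slc12a3* in a fixed proportion. *Trpv5* was at 0.692, 4.55, 1.61, 5.26 and 1.64 counts per 100 counts of *Slc12a3* in WT CTAL pools 1, 3, 8, 10 and 22. In cKO CTAL pools 2, 4, 7, 9 and 21 it was at 9.58, 22.2, 8.82, 16.1 and 13.9. These ranges did not overlap (exact p = 0.00794, adjusted over the 7 ratios 0.0556), on TPM either, but would with pool 1 as a knock-out pool, and pool 2, which was apart in *Slc12a3* itself, fell among the other cKO CTAL pools. *Pvalb* was at 2.42, 1.52, 4.38, 0 and 3.43 counts per 100 of *Slc12a3* in the same WT CTAL pools and at 0.101, 0, 1.96, 0.264 and 0.420 in the cKO CTAL pools (exact p = 0.159). The cKO CTAL pool with the most *Slc12a3* thus held only 3 counts of *Pvalb*. The ratios of the other 5 genes overlapped, with medians such as 31.6 in WT and 69.6 in cKO CTAL for *Calb1* (exact p = 0.841). In the medulla *Trpv5* was at 3.70 to 13.3 per 100 in WT and 9.86 to 117 in cKO pools (exact p = 0.0714). *Slc12a3* was between 30 and 135 counts in every medullary pool, which limits the ratio there.

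**Figure D3:**
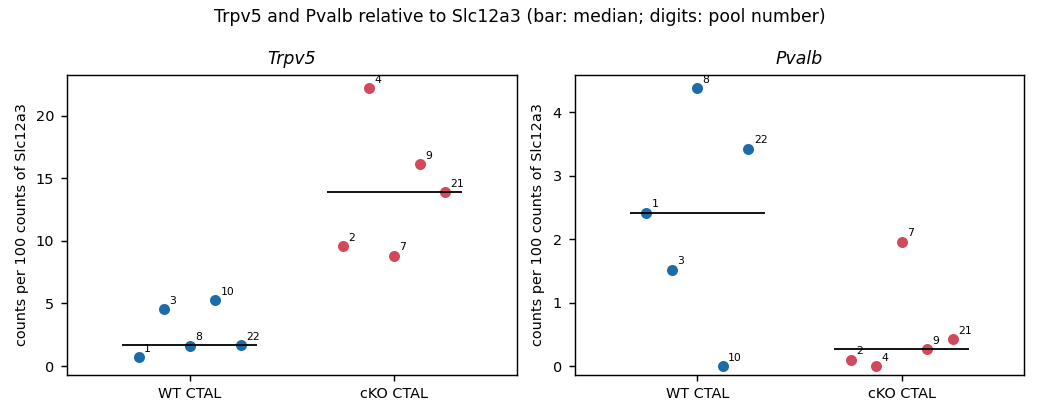
Counts of *Trpv5* (left) and *Pvalb* (right) per 100 counts of *Slc12a3* are plotted for the 10 CTAL pools, with a bar at the group median and pool numbers beside the points. *Trpv5* spans 0.692 to 5.26 in WT and 8.82 to 22.2 in cKO pools with no overlap, whereas *Pvalb* overlaps.

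Over the 10 CTAL pools, the correlation with *Slc12a3* on log2(CPM + 0.5) was highest for *Slc8a1* (Pearson's r = 0.69, permutation p = 0.0296), *Trpv5* (r = 0.65, p = 0.0455 by permutation), *S100g* (r = 0.64, p = 0.0489 by permutation) and *Calb1* (r = 0.62, p = 0.0594 by permutation). After adjustment over the 7 relations each of the 4 had a permutation p of 0.104, and Spearman's rho was 0.38, 0.49, 0.43 and 0.50 (permutation p from 0.145 to 0.28, each 0.392 after adjustment). Without the 2 pools farthest from the median of *Slc12a3*, cKO CTAL pool 2 and WT CTAL pool 10, r was 0.25, 0.08, −0.16 and 0.11, so that these relations rested on those pools. *Atp2b4* (r = 0.46), *Pvalb* (r = 0.40) and *Atp2b1* (r = 0.23) did not pass before adjustment either (permutation p = 0.187, 0.244 and 0.511). Without the same 2 pools r was 0.08 for *Atp2b4* and −0.42 for *Atp2b1*, but rose to 0.69 for *Pvalb*.

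**Figure D4:**
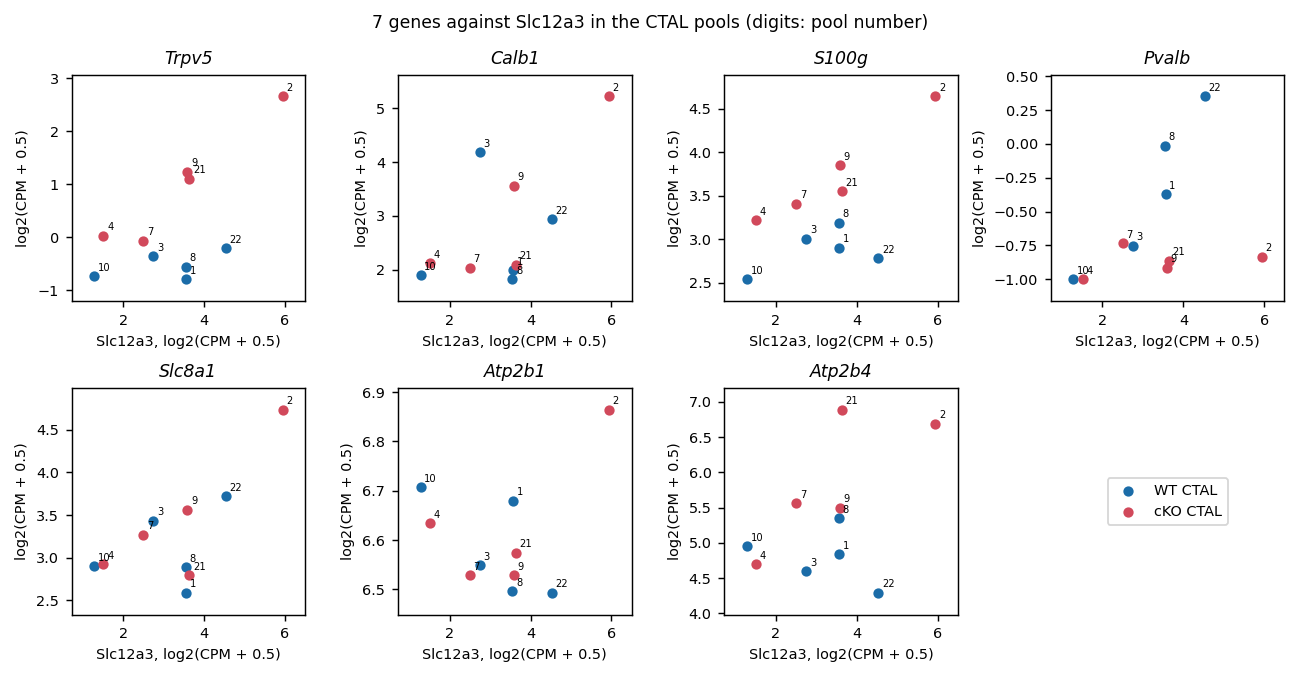
Each of the 7 other genes is plotted against *Slc12a3*, both as log2(CPM + 0.5), in the WT (blue) and cKO (red) CTAL pools with pool numbers. cKO CTAL pool 2 is at the far right of every panel and at the top for *Trpv5*, *Calb1*, *S100g*, *Slc8a1* and *Atp2b1*, and for *Trpv5* and *S100g* the red points lie above the blue ones.

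Markers of neighbouring cell types differed by unlike amounts. In cKO CTAL against WT CTAL, the median log2 fold change of the tested genes was 0.19 for distal convoluted tubule markers and 0.37 for connecting tubule markers. It was −0.09 for principal cell markers and 0.91 for intercalated cell markers. Of 7 further markers of the distal convoluted tubule, *Slc16a7*, *Wnk4*, *Sgms2* and *Klhl3* were at 37.4 CPM or more in every pool and carried nearly all of a summed level that was 1857 to 2273 CPM in WT CTAL, 1856 to 2077 in cKO CTAL, 1942 to 2172 in WT MTAL and 1472 to 1706 in cKO MTAL. These pools of thick ascending limb thus express them throughout. *Trpm6* (the magnesium channel of the distal convoluted tubule), *Slc41a3* and *Emx1* were at lower levels. *Trpm6* was at 0.847 to 2.36 CPM in WT CTAL and 1.22 to 2.01 CPM in cKO CTAL, and cKO CTAL pool 2, the highest in *Slc12a3*, held 1.23 CPM. Its highest levels were medullary, at 3.47 CPM in WT MTAL pool 15 and 3.31 CPM in cKO MTAL pool 18, within ranges of 0.38 to 3.47 CPM in WT MTAL and 1.06 to 3.31 CPM in cKO MTAL. *Slc41a3* was at 1.36 to 3.58 CPM in WT CTAL, 1.25 to 2.96 in cKO CTAL, 1.12 to 3.33 in WT MTAL and 1.16 to 4.05 in cKO MTAL. *Emx1* was at 6.48 CPM in cKO CTAL pool 2 and 11 CPM in cKO MTAL pool 20, and at 3.11 CPM or less in every other pool. Of the cKO MTAL pools, pool 20 held the least *Slc12a3* (1.74 CPM).

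The 6 connecting tubule markers summed to 2233 to 2976 CPM in WT CTAL, 2943 to 4293 in cKO CTAL, 606 to 890 in WT MTAL and 1345 to 2055 in cKO MTAL, led by *Klk1* and *Kl*, while the epithelial sodium channel subunit *Scnn1b* was at 4 to 46.8 CPM over all pools. *Scnn1b* was highest in cKO MTAL pool 20 (46.8 CPM), cKO CTAL pool 9 (27.8) and cKO CTAL pool 2 (23.1). Principal cell markers summed to 780 CPM in cKO MTAL pool 20, led by the water channel *Aqp2*, beside 64.9 and 75.4 CPM in the other 2 cKO MTAL pools and 38.1 to 251 CPM in WT MTAL. Over the cortical pools they were at 75.1 to 150 CPM in WT and 49.2 to 180 CPM in cKO. Intercalated cell markers summed to 200 and 171 CPM in cKO CTAL pools 2 and 9 and to 280 CPM in cKO MTAL pool 20, beside 56.9 to 75.1 CPM in WT CTAL and 22.4 to 114 CPM in WT MTAL. The other cKO pools held 56.3, 63.3 and 70.2 CPM in CTAL (pools 4, 7 and 21) and 46.3 and 80.9 CPM in MTAL (pools 16 and 18). Every listed gene of these 4 types had a count in each group.

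Some markers were called by the same rule. *Atp6v0d2*, a proton pump subunit of intercalated cells, was higher in cKO than in WT pools in the cortex (1.66, adjusted p = 0.0152), where none of the 8 genes was called, and in the medulla (1.86, adjusted p = 0.0381). *Klk1*, which encodes kallikrein, was higher in cKO MTAL than in WT MTAL (1.33, adjusted p = 3.12e-05), as were *Slc34a1* of the proximal tubule (2.39, adjusted p = 0.00657), *Cldn16* of the thick ascending limb (1.73, adjusted p = 1.43e-05), *Acta2* of smooth muscle (1.22, adjusted p = 0.0114) and *Hbb-bt* of red cells (2.17, adjusted p = 0.0485). The endothelial genes *Emcn* (−1.10, adjusted p = 0.0204) and *Cdh5* (−1.34, adjusted p = 0.000447) were lower there. These calls stand in the same medullary comparison as those of *S100g* and *Atp2b4*. Between WT MTAL and WT CTAL, *Klk1* (−2.20), *Cldn16* (−1.88), *Slc4a9* (−1.54) and *Scnn1b* (−1.10) were lower. *Klk1* was also lower in cKO MTAL than in cKO CTAL (−1.37), and against WT CTAL cKO MTAL held more *Slc4a9* (1.83) and less *Pappa2* (−3.17) and *Emcn* (−1.38).

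Without those 3 pools *S100g* in the cortex was at 0.52 (adjusted p = 0.435), *Trpv5* with every gene kept at 2.12 (adjusted p = 0.367), *Slc12a3* at −0.74 and *Calb1* at −0.85 (adjusted p = 0.774 and 0.675). All 5 cKO CTAL pools lay above every WT CTAL pool in *Trpv5* and in *S100g*, so that the remaining pools, 4, 7 and 21, had to do so as well. In the medulla *Atp2b4* was at 1.56 (adjusted p = 0.0171) without pool 20. The part of these cell types in the other results was not tested.

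**Figure D5:**
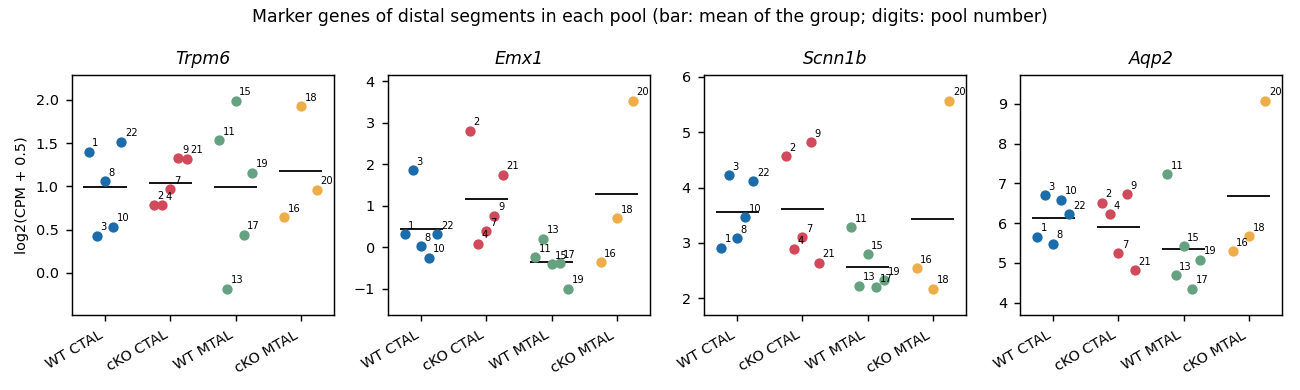
Levels of *Trpm6* and *Emx1* (distal convoluted tubule), *Scnn1b* (connecting tubule) and *Aqp2* (principal cell) are plotted as log2(CPM + 0.5) by pool, with a bar at the group mean and pool numbers beside the points. cKO MTAL pool 20 is the highest pool for *Emx1*, *Scnn1b* (46.8 CPM) and *Aqp2*, and *Trpm6* shows no such pool.

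Some of the other genes of calcium and chloride handling were called, in lists of 3 to 12 tested genes. Over all genes, 3.74% of 12060 were called between cKO MTAL and WT MTAL, 0.470% of 11702 between cKO CTAL and WT CTAL, and 2.32% of 11650 between WT MTAL and WT CTAL. Among 10 further calcium channels and exchangers, *Slc24a3*, which encodes a potassium-dependent sodium-calcium exchanger, was called higher in cKO than in WT pools of both segments, at 2.19 in the cortex (3 tested, adjusted p = 0.001) and 2.47 in the medulla (4 tested, adjusted p = 0.00466). Its levels were 1.06 to 2.22 CPM in WT CTAL and 5.30 to 10.3 CPM in cKO CTAL, and 0.655 to 1.78 CPM in WT MTAL and 2.82 to 10.4 CPM in cKO MTAL. *Slc24a5*, another such exchanger, was called higher in WT MTAL than in WT CTAL (2.29, adjusted p = 0.000532). *Trpv6*, the close relative of *Trpv5*, was at 2.52 CPM or less in every pool and was not tested. Of 7 further calcium pumps, of which 4 were tested, *Atp2c2*, a pump of the secretory pathway, was called higher in cKO MTAL than in WT MTAL (1.93, adjusted p = 0.00366). Of 10 further calcium-binding proteins, of which 8 were tested, *S100a6* was called higher there (1.22, adjusted p = 0.0105).

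In the vitamin D, parathyroid hormone and Klotho list of 8 genes, 6 were tested. *Kl*, which encodes the FGF23 co-receptor Klotho, was called higher in cKO MTAL than in WT MTAL (1.23, adjusted p = 1.82e-05), as was *Pth1r*, the parathyroid hormone receptor (2.35, adjusted p = 7.52e-06). The median of the 6 was 0.80. None of the 6 was called in the cortex (median 0.24), though 2 had an adjusted p under 0.05. Between WT MTAL and WT CTAL *Kl*, *Pth1r* and *Vdr*, the vitamin D receptor, were called lower (median −1.05). Of 12 regulators of NCC, all tested, *Wnk1*, a kinase that controls NCC phosphorylation, was called higher in cKO MTAL (1.16, adjusted p = 0.000429) and lower in WT MTAL than in WT CTAL (−1.30), with a list median of 0.02 and −0.00. None of the 6 tested among 8 further cation-chloride cotransporters was called by edgeR in either comparison of genotypes (medians −0.09 in the cortex and −0.15 in the medulla).

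The genes most like *Slc12a3* over the 10 CTAL pools, among 12553 expressed genes, were *Cadps2* (r = 0.92), *Sh3d19*, *Ncl*, *Scnn1a* and *Gclm* (r = 0.89 each). Those most like *S100g* over all 18 pools were *Enox1* (r = 0.94), *Slc4a9* (r = 0.94), *Wsb1* (r = 0.93), *Csrp1* (r = 0.93) and *Mfge8* (r = 0.92). *Slc4a9*, an anion exchanger of intercalated cells, is on the intercalated cell list and was called higher in cKO MTAL than in WT MTAL (3.37, adjusted p = 0.000223). The points of these correlations share libraries and groups, and no p is given for them.

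The ratio of TPM to CPM shows how far length correction by transcript moved a gene between pools. Over pools with at least 10 counts it spanned 3 to 4.30 for *S100g* (n = 18 pools) and 0.342 to 0.454 for *Slc12a3* (n = 18). It spanned 0.0760 to 0.391 for *Slc8a1*, a 5.14-fold range, 0.342 to 1.03 for *Calb1* and 0.217 to 0.585 for *Atp2b1* (n = 18 each). For *Atp2b4* it spanned 0.13 to 0.306, a 2.35-fold range (n = 18), and for *Trpv5* 0.406 to 0.698 (n = 9). Values of *Slc8a1*, *Calb1*, *Atp2b1* and *Atp2b4* therefore depend more on the unit than those of *S100g* and *Slc12a3*.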

How the data were processed

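Messenger RNA of 18 pools of microdissected tubules was sequenced. The authors trimmed the reads with fastp and used the Illumina DRAGEN platform on mm10 with a GENCODE annotation, and the submitters' processing notes also list Trimmomatic, FastQC and Picard. The authors deposited estimated counts per gene, which are not normalized, and TPM values, which are scaled for transcript length and depth. For the count tests the estimates were rounded, although the plan had been for whole counts. All columns were mapped to pools.

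The 8 genes, the marker and pathway lists, and the rule for the genes named were chosen with earlier results of these data known. Named were all 8 genes, the called genes of the lists (for the comparisons described), and the 5 genes most correlated with *Slc12a3* or *S100g*. The quasi-likelihood test of edgeR (version 4.0.16, R 4.3.3, TMM) was run on the groups compared, for genes with 3 CPM of total counts in at least 5 pools (3 pools if cKO MTAL took part), with Benjamini-Hochberg adjustment over all genes tested. The difference between effects was fitted on all 18 pools. Mann-Whitney tests were exact and two-sided (scipy), and correlations used 100000 permutations. Alternatives were DESeq2 (version 1.42.0), limma (version 3.58.1) on log2(TPM + 0.5), relative log expression factors, no filter, a shared fit, each pool left out, and WT CTAL pool 1 as cKO. A term for *Xist*, the omission of the 3 pools with the highest *Scnn1b*, no filter with pools left out, and TPM ratios to *Slc12a3* were added after seeing the data. On counts simulated with 200 changed genes, the test recovered 97 of 99 tested genes changed by 1.5 on the log2 scale between cKO CTAL and WT CTAL, and 100 of 100 between cKO MTAL and WT MTAL. The simulation gave every gene the same dispersion (spread between pools beyond counting error) and changed only genes past the filter. It therefore does not show how often a change in the 8 genes would be found. Intervals and floors cover counting error only.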

Additional observations from a re-analysis of the deposited data

Results flagged for a closer look

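In 6 of the 24 sets of 5 pools examined (8 genes in 3 groups), a pool stood apart from the other 4 of its group by more than Dixon's 95% limit for its gap. The limit flags about 1 in 20 sets where values are normally distributed and the sets are independent. These sets hold CPM that were not put on a log scale, and they share libraries, so no excess over that rate can be read from them. In 4 of the 6 it was cKO CTAL pool 2, at 60.8 CPM of *Slc12a3* (next highest 11.9), 36.8 CPM of *Calb1* (next 11.3), 5.82 CPM of *Trpv5* (next 1.86) and 26.1 CPM of *Slc8a1* (next 11.3). In the other two, WT CTAL pool 3 held 17.7 CPM of *Calb1* (next 7.14) and WT MTAL pool 13 held 14.1 CPM of *Atp2b4* (next 9.44). The cKO MTAL group, with 3 pools, was not examined in this way.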

How the results depend on the processing

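The medullary difference of *S100g* between genotypes and the lower *S100g* and *Atp2b4* of WT MTAL were called with every pool left out and in every alternative run for them. Under the alternatives that leave out no single pool, 8 log2 fold changes passed the threshold anew, 6 no longer passed it, 13 changed sign, and all others kept their sign and their side of it. No paired analysis was made, because no pool number is shared between groups and the labels name no pairs of littermates. The number of genes called in cKO MTAL against WT MTAL was 2 and became 4 with no filter (1 to 3 with a pool left out). It became 3 with DESeq2, in a shared fit, and with *Xist* as a covariate, where the 3 were *Calb1*, *Slc8a1* and *S100g*. In cKO CTAL against WT CTAL it was 0 and became 1 with no filter (0 to 1 with a pool left out), and 0 with WT CTAL pool 1 as cKO. In WT MTAL against WT CTAL it was 3 and became 5 with *Xist* as a covariate, 4 with no filter and 2 with limma on TPM (2 to 3). In cKO MTAL against cKO CTAL it was 0 and became 1 with no filter, in a shared fit and with *Xist* as a covariate (0 to 1), in cKO MTAL against WT CTAL it was 0 (0 to 1), and for the difference between effects it became 1 with DESeq2 (0 to 1). On TPM, 5 genes instead of 2 passed the exact Mann-Whitney test in cKO MTAL against WT MTAL and 2 instead of 1 against cKO CTAL, 3 instead of 4 did in WT MTAL against WT CTAL, and on total-count CPM 1 instead of 2 against WT CTAL. *Atp2b1* then turned to higher in cKO MTAL than in each other group (exact p = 0.0357 each), and with limma on TPM it was at 0.52 against WT MTAL, 0.40 against cKO CTAL, 0.32 against WT CTAL and −0.08 between the cortical groups. With limma *Atp2b4* was at 0.11 in cKO MTAL against WT CTAL, and *S100g* at −0.03 in cKO MTAL against cKO CTAL. Without the 3 pools of highest *Scnn1b*, the cortical genotype difference was −0.74 for *Slc12a3*, −0.85 for *Calb1*, −0.17 for *Slc8a1* and −0.01 for *Atp2b1*, and in cKO MTAL *Slc8a1* was at −0.57 against WT CTAL and −0.41 against cKO CTAL, and *Atp2b4* at 0.01 against WT CTAL. With single pools left out, the cortical difference ran from −0.46 to 1.24 for *Slc12a3*, −0.23 to 1.51 for *Calb1* and −0.03 to 0.07 for *Atp2b1*. In cKO MTAL against WT CTAL it ran from −0.57 to 0.92 for *Slc8a1* and −0.94 to 0.01 for *Atp2b4*, and against cKO CTAL from −1.07 to 0.59 for *Slc8a1* and −0.13 to 0.53 for *S100g*. The correlation with *Slc12a3* became −0.42 for *Atp2b1* and −0.16 for *S100g* without the 2 extreme pools, and rose to 0.69 for *Pvalb*. The cause of these changes was not tested. *Trpv5* and *Pvalb*, at 2 to 285 and 0 to 30 counts a pool, are limited by depth.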
